A study of Rattus norvegicus with 36 samples.

Results

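The genes described here are Ncald, Stac3, Akr1c2, Ltc4s, Pla2g12a, Rpp21, Hcfc2 and Car3, 8 of the 9314 genes tested, grouped under the working name of vitamin A reversible genes of the unligated rat liver. They were chosen by name, through probes whose target name in the array file is one of these symbols or an older synonym, and 1 probe was found for each. AKR1C21 in the file stands for Akr1c2 and CA3 for Car3. The names were proposed from the sham-operated groups of these same arrays, so the listed genes are compared among sham groups as a description with no test. All 8 passed the filter on dim probes, but Stac3 (detected on 15 of 36 arrays), Ltc4s (16) and Hcfc2 (20) were detected only in part. Stac3 passed through sham groups alone, and Ltc4s was detected mainly in the sham groups in which it is high.

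The series asked how a lack of vitamin A acts on the liver in obstructive cholestasis, and measured liver RNA of 36 male Wistar rats on Illumina bead arrays, 1 array per rat. The 8 groups combine a vitamin A state, deficient (VAD) or sufficient (VAS), an operation that was either bile duct ligation (BDL) or sham, and daily intraperitoneal retinyl palmitate (VITA) or vehicle. The BDL groups VAD VITA, VAD vehicle, VAS VITA and VAS vehicle hold 5 rats each, and the sham groups of the same 4 names hold 4 each. The labels name no allele, age, dose or duration. Retinyl palmitate is a storage ester of vitamin A. Deficiency began before the operation, so injected VAD rats are deficient rats given the vitamin back.

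Vitamin A reaches the liver as retinyl ester, is held mostly in stellate cells, and acts after oxidation to retinoic acid. Retinoic acid binds receptors that pair with retinoid X receptors on repeats of a short half-site in DNA. In the rat liver many genes are also set by the pattern of growth hormone release, which differs between the sexes, and cholestasis is known to lower many hepatocyte enzymes. The listed genes share no pathway. Rpp21 is a subunit of ribonuclease P, which trims precursor tRNA. Akr1c2 belongs to the aldo-keto reductases, many of which reduce ketosteroids, Ltc4s joins glutathione to leukotriene A4, Pla2g12a is a secreted phospholipase A2, and Car3 is a cytosolic carbonic anhydrase. Ncald is a calcium sensor known from neurons, Stac3 an adaptor of the calcium channel complex of skeletal muscle, and Hcfc2 a relative of the transcriptional coregulator Hcfc1.

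Values are log2 intensities after background correction and quantile normalization, a difference is one group's mean log2 intensity minus the other's, with its model standard error (SE), and a gene is called at a limma p adjusted over all genes under 0.05. A probe is detected when its detection p is under 0.01. Arrays had 29.2% to 38.1% of probes detected, and within groups they correlated at 0.944 to 0.987. The hepatocyte markers Serpina1, Fgb and Tf were among the brightest of their list, in which Apob was detected on 0 arrays. The summed log2 level of the list was 17.19 to 17.44 over all 8 groups. In sham livers the sum was 17.36 to 17.42 in VAD vehicle rats, above every other sham rat. It was 17.19 to 17.26 in VAD VITA, 17.24 to 17.34 in VAS VITA and 17.26 to 17.34 in VAS vehicle sham rats. The arrays lie on 3 slides that hold unequal parts of the groups, so values within slides are given where they bear on a result. The labels call the samples biological replicates; precision is limited by how many arrays a group holds.

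The working name was checked against the sham arrays. Of the 9314 genes, 48 passed the threshold both for diet and for retinyl palmitate in VAD rats, all 48 with opposite signs, and 3 listed genes are among them: Stac3, Ltc4s and Rpp21. In VAD against VAS sham vehicle livers 4 of the 8 listed genes passed (those 3 and Akr1c2), where 1.11% of all genes did, 0.687% higher and 0.419% lower. In VITA against vehicle VAD sham livers 5 passed (those 3, Ncald and Pla2g12a), where 1.3% of all genes did, 0.741% higher and 0.558% lower. Ncald and Hcfc2 were the 2 genes, 0.0215% of all, that passed for retinyl palmitate in VAS sham livers. Car3 passed in none of these. These shares follow from how the names were chosen and nothing is read from them. The name therefore describes 3 of the 8 genes at this threshold, and the 8 are called the listed genes below.

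Rpp21, the ribonuclease P subunit, separated the VAD vehicle sham rats from all other sham rats. It read 11.68, 12.11, 11.91 and 11.75 in VAD VITA sham livers, against 10.02, 9.81, 9.78 and 10.26 in VAD vehicle sham livers. It read 11.56, 11.63, 11.69 and 11.85 in VAS VITA sham livers, against 11.35, 11.49, 11.57 and 11.65 in VAS vehicle sham livers. The VAD vehicle rats lie below every other sham rat, and the VAD VITA rats lie above every VAS vehicle rat. The diet difference was -1.55 (SE 0.16), 2.93-fold, and the retinyl palmitate difference in VAD rats was 1.90 (SE 0.16), 3.72-fold. Within slides 1 and 3 the diet difference was -1.51 and -1.63, and slide 2 held no VAD vehicle sham array.

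Stac3, the muscle calcium channel adaptor, showed the same shape with a larger size. It read 10.64, 11.39, 10.43 and 10.03 in VAD VITA sham livers, against 6.82, 7.15, 5.42 and 8.22 in VAD vehicle sham livers, where 3 of 4 arrays detected it. It read 12.06, 10.95, 11.79 and 10.87 in VAS VITA sham livers, against 9.78, 9.20, 12.51 and 11.10 in VAS vehicle sham livers. The VAD vehicle values do not overlap those of the other sham groups. The diet difference was -3.74 (SE 0.46), 13.4-fold, and it ranged from -4.22 to -3.12 with 1 array left out, the ends being without VAS vehicle replicates 2 and 3. Retinyl palmitate in VAD rats gave 3.72 (SE 0.46), 13.2-fold, and the VAD VITA and VAS vehicle means were 10.62 ± 0.57 and 10.65 ± 1.47 (SD, n = 4 each). Within slides 1 and 3 the diet difference was -2.51 and -4.27.

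The tissue source of Stac3 was checked against skeletal muscle markers. Of 15 muscle markers with a probe, 12 were detected on 0 arrays, among them Acta1, Ckm and Mb, and the summed log2 level of the list was 8.57 to 8.80 in VAD vehicle sham livers and 8.61 to 8.84 in VAS vehicle sham livers. Over all 8 groups it was 8.57 to 8.89. Tnnc2 and Eno3, the brightest tested muscle markers, had diet differences of -0.45 (adjusted p = 0.54) and -0.24 (adjusted p = 0.82) in sham livers by limma.

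Ltc4s, the leukotriene C4 synthase, lay near the background. It read 5.41, 7.55, 8.38 and 7.17 in VAD VITA sham livers, detected on 3 of 4 arrays, against 5.57, 4.86, 4.49 and 4.63 in VAD vehicle sham livers, detected on none. It read 7.95, 8.32, 8.77 and 7.47 in VAS VITA sham livers, against 7.86, 7.55, 6.73 and 7.48 in VAS vehicle sham livers. The VAD vehicle rats lie below all VAS rats, while VAD VITA replicate 1 lies within the VAD vehicle range. With the level in VAD vehicle livers known only to lie under the background, Ltc4s was at least 3.15-fold lower in VAD vehicle than in VAS vehicle sham livers and at least 2.60-fold higher in VAD VITA than in VAD vehicle sham livers. These bounds set the mean of the detected group against the lowest detected signal of each dim array or the dim probe's own signal, whichever is higher. They take no account of the spread between rats, here and below. The fitted differences were -2.52 and 2.24 (SE 0.42 each), and the second was 2.81 without VAD VITA replicate 1. Within slide 1, which holds that replicate, retinyl palmitate gave 0.20, and within slide 3 it gave 2.61. Mast cells and eosinophils are known for this enzyme. Of 13 markers of these cells with a probe, 7 were detected on 0 arrays, among them Kit, Ms4a2 and Epx, and the summed level of the list was 8.64 to 8.89 in VAD VITA, 8.51 to 8.81 in VAD vehicle and 8.65 to 9.0 in VAS vehicle sham livers. Their part in the result was not tested. In bulk tissue fewer cells of a type and less RNA per cell cannot be told apart.

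Akr1c2 had the largest sham diet difference of the listed genes, and 1 array decides how far retinyl palmitate returned it. It read 10.79, 11.04, 7.27 and 10.87 in VAD VITA sham livers, against 7.0, 8.37, 8.08 and 7.60 in VAD vehicle sham livers. It read 12.08, 12.10, 11.39 and 11.57 in VAS VITA sham livers, against 12.20, 11.83, 10.82 and 12.53 in VAS vehicle sham livers. The VAD vehicle rats lie below every VAS rat, and VAD VITA replicate 3 lies among them. The diet difference was -4.08 (SE 0.75), 16.9-fold. The retinyl palmitate difference was 2.23 (SE 0.75), 4.68-fold, and 3.14 without that replicate. Within slides 1 and 3 the diet difference was -4.33 and -4.69. The rat genome carries many closely related Akr1c genes, so a probe may also bind relatives of Akr1c2. AKR1C3l1, named after its values were seen, for lying 2 places from Akr1c2 in RefSeq's gene order, showed -1.74 (SE 0.42, adjusted p = 0.029) for diet and 2.34 (SE 0.42, adjusted p = 0.0013) for retinyl palmitate in VAD sham livers by limma.

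Pla2g12a, the secreted phospholipase A2, ran the other way. It read 7.85, 7.06, 9.37 and 7.94 in VAD VITA sham livers, against 10.02, 10.58, 11.41 and 10.36 in VAD vehicle sham livers. It read 7.88, 8.95, 8.47 and 8.01 in VAS VITA sham livers, against 9.23, 9.97, 8.71 and 9.93 in VAS vehicle sham livers. The VAD vehicle rats are the highest of the sham rats, and the vehicle rats of either diet have the higher mean. The differences were 1.13 (SE 0.37) for diet, -2.54 (SE 0.37) for retinyl palmitate in VAD rats and -1.14 (SE 0.37) in VAS rats. The VAD VITA livers averaged 8.05 ± 0.96 and the VAS vehicle livers 9.46 ± 0.61 (SD, n = 4 each), a difference of -1.41 (SE 0.37).

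Ncald, the calcium sensor, followed the injection more than the diet. It read 6.91, 6.68, 6.81 and 7.01 in VAD VITA sham livers, against 9.71, 8.57, 9.22 and 9.41 in VAD vehicle sham livers. It read 5.96, 6.45, 6.23 and 7.38 in VAS VITA sham livers, against 9.41, 9.29, 8.53 and 6.74 in VAS vehicle sham livers. VAS vehicle replicate 4 is the 1 vehicle rat that lies among the injected rats. The retinyl palmitate difference was -2.38 (SE 0.38), 5.20-fold, in VAD rats and -1.99 (SE 0.38), 3.97-fold, in VAS rats. The difference in VAS rats was -2.57 without that replicate. The diet difference in vehicle rats was 0.74 (SE 0.38), and 0.15 without VAS vehicle replicate 4. Within slides 1 and 3 the diet difference was -0.20 and 2.57, of opposite sign, and the retinyl palmitate difference in VAD rats -2.23 and -2.31.

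Among VAS sham rats retinyl palmitate gave differences of 0.77 (SE 0.46) for Stac3, 0.72 (SE 0.42) for Ltc4s, 0.17 (SE 0.16) for Rpp21 and -0.06 (SE 0.75) for Akr1c2. The value of Stac3 was 0.29 without VAS vehicle replicate 2 and 1.39 without VAS vehicle replicate 3.

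Hcfc2 and Car3 showed little of the named pattern. Hcfc2 read 5.05 to 6.34 in VAD VITA and 5.46 to 6.07 in VAD vehicle sham livers, a difference of -0.08 (SE 0.24). It read 4.66, 5.22, 4.82 and 4.88 in VAS VITA sham livers, detected on none, against 6.01, 6.42, 6.13 and 6.15 in VAS vehicle sham livers, detected on all 4. These groups do not overlap, and by the bound used for Ltc4s, Hcfc2 was at least 1.39-fold lower in VAS VITA livers. Its signal lies near the background, and the difference was only -0.23 in the authors' deposited table of normalized intensities. Car3 read 14.24, 14.07, 14.37 and 13.57 in VAD VITA sham livers, against 13.51, 13.60, 12.98 and 12.85 in VAD vehicle sham livers. It read 14.52, 13.49, 14.45 and 14.41 in VAS VITA sham livers, against 14.81, 13.82, 14.65 and 12.92 in VAS vehicle sham livers. Car3 is bright in all sham rats, the groups of either diet overlap, and the differences were -0.82 (SE 0.71) for diet and 0.83 (SE 0.71) for retinyl palmitate in VAD rats.

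**Figure D1:**
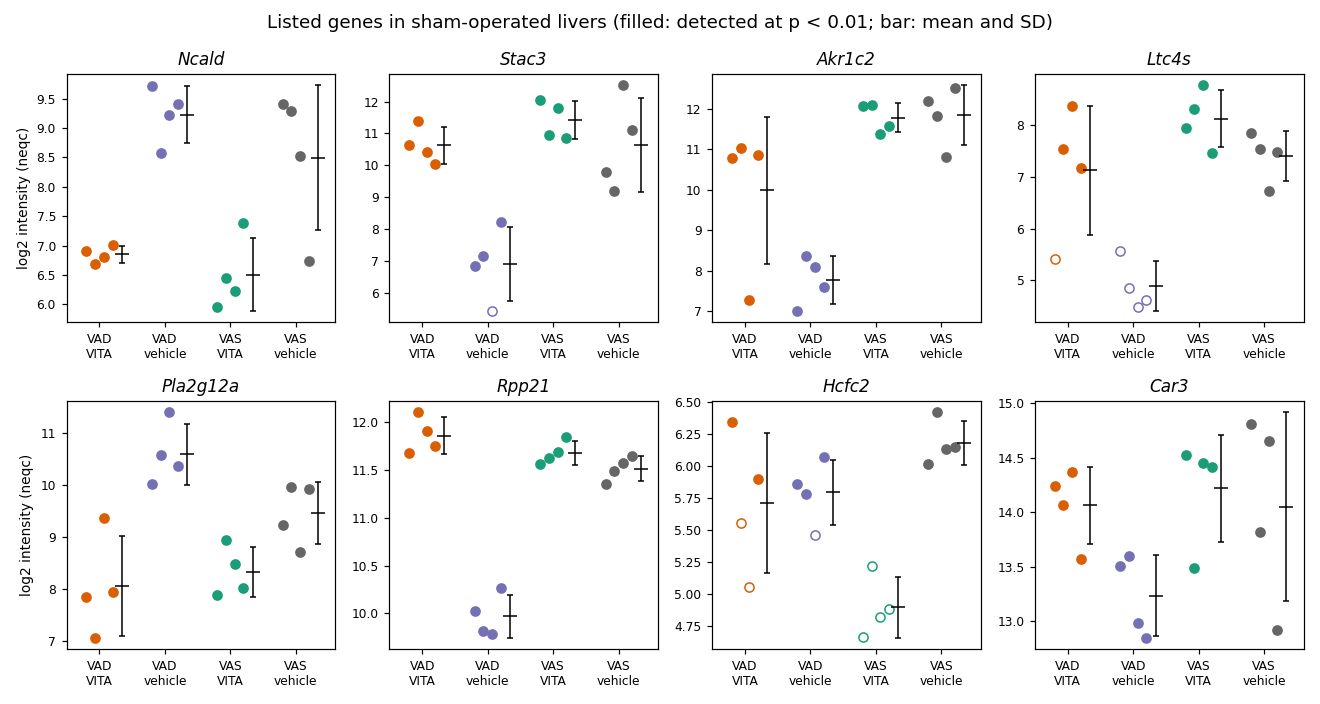
Log2 intensity of each listed gene in every sham-operated rat, 4 per group, with the group mean and SD as a bar beside the points. Filled points are detected arrays. The VAD vehicle rats lie below all other sham rats in Rpp21 and Stac3, 1 VAD VITA rat lies with them in Akr1c2 at 7.27, and Ncald is low in both injected groups.

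Summed marker levels of other cell types also differed between the sham groups. The summed log2 level of Kupffer cell and macrophage markers was 11.87 to 12.21 in VAD VITA, 11.91 to 12.80 in VAD vehicle and 11.50 to 11.90 in VAS vehicle sham livers. Neutrophil markers were at 9.04 to 11.59, 10.46 to 10.91 and 8.48 to 9.17 in these 3 groups, and adipose markers at 10.72 to 11.06, 11.14 to 11.48 and 10.65 to 11.02. VAD vehicle livers lie above VAS vehicle livers in all 3 lists. They also do in exocrine pancreas markers, at 10.57 to 11.89 in VAD vehicle and 9.94 to 10.47 in VAS vehicle sham livers, and in B and plasma cell markers, at 7.82 to 8.38 and 7.13 to 7.65. Single bright genes weigh in these sums. Cela1 averaged 11.08 in VAD vehicle and 9.82 in VAS vehicle sham livers, and the pancreas marker Cpb1 4.98 and 4.95. Jchain, the 1 tested plasma cell marker, averaged 7.06 and 5.69. Of the neutrophil markers Lcn2 averaged 10.39 and 7.73, S100a8 6.28 and 5.44, and Mmp9 5.43 and 5.58. Of those with a probe, 5 of 9 pancreas, 3 of 5 plasma cell and 3 of 8 neutrophil markers were detected on 0 arrays. The part of these cells in the sham differences was not tested. Of the markers tested singly for diet, 1 of 8 Kupffer cell and macrophage markers, 0 of 3 neutrophil and 0 of 6 adipose markers passed.

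In the authors' deposited table of normalized intensities several sham differences were smaller with the same sign, in dim and in well-detected genes. The sham diet difference on the log2 scale of that table was -2.43 for Stac3, -0.65 for Ltc4s and -3.21 for Akr1c2. The retinyl palmitate difference in that table was -1.28 for Ncald and -1.83 for Pla2g12a in VAD rats, and -0.95 for Ncald and -0.23 for Hcfc2 in VAS rats.

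Promoters of the 4 listed genes that passed for diet in sham livers are shown because these genes were low together in the VAD vehicle rats. RefSeq windows of 300 bases, from 250 before to 50 after the annotated start, were available for 6 of the 8 listed genes in the build GRCr8. They were searched on both strands for the half-site AGGTCA and its variants, namely GGGTCA as well as GGTTCA and also AGTTCA, for pairs of these in the same direction with 0, 1, 2 or 5 bases between, for the palindrome TTCNNNGAA known from STAT factors, and for the TATA box TATAAA. Capitals mark half-sites, and the runs read 5′ to 3′ on the strand of the gene. The windows lie at chr7:65228225-65228524 (plus strand) for Stac3, chr17:70717831-70718130 (minus strand) for Akr1c2, chr10:35063545-35063844 (minus strand) for Ltc4s and chr20:2023128-2023427 (plus strand) for Rpp21.
Stac3: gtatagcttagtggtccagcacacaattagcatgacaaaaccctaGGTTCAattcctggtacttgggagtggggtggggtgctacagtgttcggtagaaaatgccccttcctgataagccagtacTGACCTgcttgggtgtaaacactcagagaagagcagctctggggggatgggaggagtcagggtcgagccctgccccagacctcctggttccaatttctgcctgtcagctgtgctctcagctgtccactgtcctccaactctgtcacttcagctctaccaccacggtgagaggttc
Akr1c2: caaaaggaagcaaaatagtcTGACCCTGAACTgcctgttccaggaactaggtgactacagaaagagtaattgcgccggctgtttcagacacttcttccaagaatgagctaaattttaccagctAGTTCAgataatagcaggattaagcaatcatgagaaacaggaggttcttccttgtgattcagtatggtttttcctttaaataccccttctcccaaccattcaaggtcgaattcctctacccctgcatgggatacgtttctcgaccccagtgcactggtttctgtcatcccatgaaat
Ltc4s: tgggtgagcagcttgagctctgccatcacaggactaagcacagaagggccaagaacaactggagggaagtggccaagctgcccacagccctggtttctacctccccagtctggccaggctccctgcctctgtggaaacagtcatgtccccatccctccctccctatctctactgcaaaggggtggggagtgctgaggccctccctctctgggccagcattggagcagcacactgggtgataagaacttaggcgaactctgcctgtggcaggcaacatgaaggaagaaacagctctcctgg
Rpp21: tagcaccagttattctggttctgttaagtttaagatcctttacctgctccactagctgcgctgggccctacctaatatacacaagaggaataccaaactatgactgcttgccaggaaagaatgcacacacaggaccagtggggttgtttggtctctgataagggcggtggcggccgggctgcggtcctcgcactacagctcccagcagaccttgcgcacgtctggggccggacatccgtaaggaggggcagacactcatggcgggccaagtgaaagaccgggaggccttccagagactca

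Stac3 held GGTTCA at position -205 and AGGTCA on the opposite strand at -125, counted from the annotated start, and 11.7% and 16.2% of the 33469 promoters of the RefSeq table hold these letters. Akr1c2 held GGGTCA and AGTTCA side by side on the opposite strand at -230 and -224, a pair with 0 bases between that 0.137% of promoters hold. This spacing was added to the search after the pair had been seen. It also held AGTTCA at -127, and TTCNNNGAA at -213 and -156, which 8.87% of promoters hold at least once. Ltc4s and Rpp21 held none of the letters searched. Pairs with 1, 2 or 5 bases between were in none of the 6 windows. The other windows are those of Pla2g12a, with GGTTCA on the opposite strand, and Hcfc2, with GGGTCA. A match is a description of the letters, and a window without one says only that they are not in it.

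After ligation the diet difference was tested in rats outside the sham groups from which the names were proposed. Car3 passed in no sham comparison and its fall after ligation was known, so its test here may not be free of the choice. In VAD against VAS vehicle BDL livers 3 of the 8 listed genes were called by limma, Rpp21 and Car3 lower and Pla2g12a higher, where 26.4% of all genes were called, 14.3% higher and 12.1% lower. The share of the listed genes is near that of all genes and is no result about the list. Their median difference was -0.35, against -0.04 over all genes. This median pools genes of opposite sham direction and includes Stac3, which no BDL array detected, so nothing is read from it.

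Rpp21 kept its sham direction and nearly its sham size. It read 9.24, 9.45, 9.60, 9.46 and 9.76 in VAD vehicle BDL livers, against 10.92, 10.77, 11.12, 11.19 and 11.30 in VAS vehicle BDL livers. The groups do not overlap, with the highest VAD rat at 9.76 and the lowest VAS rat at 10.77. Rpp21 fell 2.94-fold (-1.56, SE 0.14, limma adjusted p = 4.5e-10, 95% interval -1.85 to -1.27). Within slides 1, 2 and 3 the difference was -1.60, -1.63 and -1.69. Trim39, named after its values were seen because its annotated span overlaps that of Rpp21, differed by -0.80 (SE 0.15, limma adjusted p = 0.00012) in the same comparison and by -0.58 (SE 0.17, adjusted p = 0.095) for diet in sham livers. Where the Rpp21 probe lies in that shared span was not tested.

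Pla2g12a also kept its sham direction. It read 11.76, 11.34, 11.44, 11.81 and 11.64 in VAD vehicle BDL livers, against 11.13, 10.24, 9.01, 10.30 and 10.65 in VAS vehicle BDL livers. The groups do not overlap, and VAS replicate 3 is the lowest of the 10 rats. Pla2g12a rose 2.52-fold (1.33, SE 0.33, limma adjusted p = 0.0025, 95% interval 0.65 to 2.02). The difference was 1.08, 1.73 and 1.08 within slides 1, 2 and 3.

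Car3 fell in VAD rats, with overlapping groups and a call that rests on single arrays. It read 5.27, 5.98, 7.02, 9.20 and 6.63 in VAD vehicle BDL livers, against 7.72, 9.16, 9.47, 8.20 and 9.46 in VAS vehicle BDL livers. VAD replicate 4 lies within the VAS range, and the other 4 VAD rats lie below it. The difference was -1.98 (SE 0.64, limma adjusted p = 0.019, 95% interval -3.29 to -0.68), 3.95-fold, and -3.17, -2.34 and -1.54 within slides 1, 2 and 3. The adjusted p was 0.08 without VAD replicate 1, 0.053 without VAD replicate 2 and 0.051 without VAS replicate 3, and in the authors' deposited table the difference was -0.88 (adjusted p = 0.12).

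Akr1c2 did not pass. It read 9.26, 9.75, 9.10, 9.32 and 9.97 in VAD vehicle BDL livers, against 10.06, 10.26, 11.69, 11.68 and 11.28 in VAS vehicle BDL livers. The groups do not overlap, and the difference was -1.51 (SE 0.67, limma adjusted p = 0.093, 95% interval -2.88 to -0.15). A fit to these 2 groups alone gave an adjusted p of 0.0035 at the same difference. The neighbour AKR1C3l1 differed by -1.78 (SE 0.38, limma adjusted p = 0.00047).

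The remaining genes gave no diet call after ligation. Stac3 was detected on 0 of the 20 BDL arrays, at 4.49 to 4.81 in VAD vehicle and 4.45 to 5.26 in VAS vehicle BDL livers, so a diet difference in it could not be measured there. Ltc4s was detected on 0 of 5 VAD vehicle and 2 of 5 VAS vehicle BDL arrays, with a difference of -0.59 (SE 0.38, limma adjusted p = 0.27). Ncald read 9.49 to 10.62 in VAD vehicle BDL livers, against 9.57 to 9.85 in VAS vehicle BDL livers, a difference of 0.36 with a 95% interval of -0.33 to 1.04. Hcfc2 differed by 0.22 with a 95% interval of -0.22 to 0.65. The sham diet differences were 0.74 for Ncald and -0.38 for Hcfc2.

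**Figure D2:**
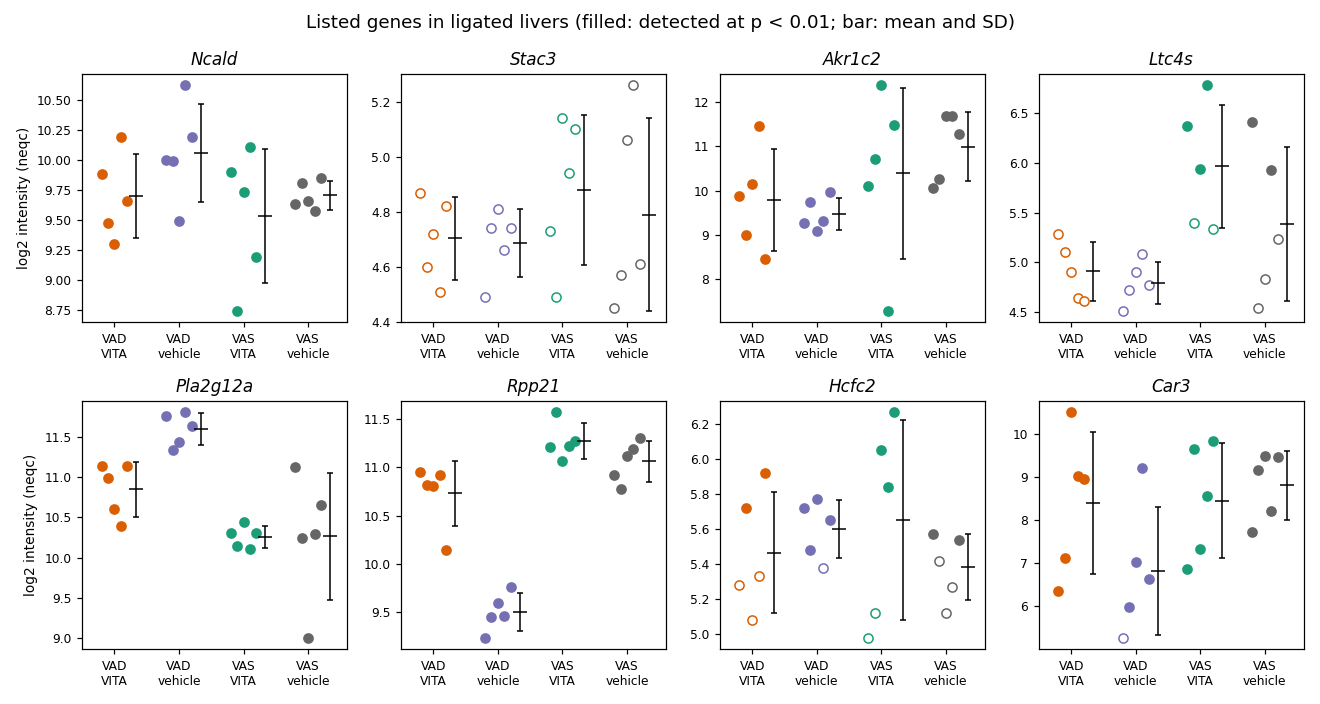
Log2 intensity of each listed gene in every ligated rat, 5 per group, with the group mean and SD as a bar beside the points and filled points for detected arrays. Rpp21 is lowest in VAD vehicle rats at 9.24 to 9.76, Pla2g12a is highest there at 11.34 to 11.81, and no BDL array detected Stac3.

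Retinyl palmitate in VAD BDL rats was compared with vehicle in the same state, using the same VAD vehicle arrays as the diet comparison. Of the 8 listed genes, Rpp21 alone was called by limma, where 17.0% of all genes were called, 7.67% higher and 9.32% lower. Rpp21 read 10.95, 10.82, 10.81, 10.92 and 10.14 in VAD VITA BDL livers, against the 9.24 to 9.76 of VAD vehicle BDL livers. The groups do not overlap, and VAD VITA replicate 5 stands below the other 4 injected rats. Rpp21 rose 2.34-fold (1.23, SE 0.14, limma adjusted p = 1.3e-07, 95% interval 0.94 to 1.52). Within slides 1, 2 and 3 the difference was 1.64, 1.34 and 0.53, and slide 3 holds that replicate as its 1 injected array. In sham VAD rats the corresponding difference was 1.90, given without a test.

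Pla2g12a read 11.14, 10.99, 10.60, 10.39 and 11.14 in VAD VITA BDL livers, all below the 11.34 to 11.81 of VAD vehicle BDL livers. The difference was -0.75 (SE 0.33, limma adjusted p = 0.13, 95% interval -1.43 to -0.06), and a fit to these 2 groups alone gave an adjusted p of 0.019. Car3 read 6.36, 7.11, 10.50, 9.02 and 8.94 in VAD VITA BDL livers, against the 5.27 to 9.20 of VAD vehicle BDL livers. The groups overlap, and the difference of 1.57 (SE 0.64, limma adjusted p = 0.091) was 2.07, 1.89 or 2.16 without VAD VITA replicate 1 or 2 or VAD vehicle replicate 4, with adjusted p of 0.021, 0.047 and 0.012.

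Akr1c2 read 9.89, 9.01, 10.16, 11.46 and 8.45 in VAD VITA BDL livers, spread to both sides of the 9.10 to 9.97 of VAD vehicle BDL livers. Its difference was 0.31 (limma adjusted p = 0.81) with a 95% interval of -1.05 to 1.68, beside 2.23 in sham VAD rats; the difference between the operations was not tested. Ncald differed by -0.36 with a 95% interval of -1.04 to 0.33, beside -2.38 in sham VAD rats. Ltc4s and Stac3 were detected on 0 arrays of either group.

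Among VAS BDL rats retinyl palmitate gave no call. By limma 0 of the 8 listed genes and 0.0% of all genes passed, and at an unadjusted p under 0.05 there were 0 listed genes and 473 of 9314 genes. Rpp21 read 11.21, 11.57, 11.06, 11.22 and 11.27 in VAS VITA BDL livers, against the 10.77 to 11.30 of VAS vehicle BDL livers, and the difference was 0.21 with a 95% interval of -0.08 to 0.50. Ncald, at -1.99 in VAS sham rats, differed by -0.17 with a 95% interval of -0.86 to 0.52. The retinyl palmitate difference was larger in VAD than in VAS BDL rats for Rpp21, by 1.02 (SE 0.20, limma adjusted p = 0.00059), the 1 listed gene called in this interaction, where 13.4% of all genes were called, 5.74% with a positive and 7.68% with a negative interaction. Car3 gave 1.93 (SE 0.90, adjusted p = 0.16), and 2.52 (adjusted p = 0.043) without VAD vehicle replicate 4.

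The injected VAD BDL rats were then set against both VAS BDL groups. Against VAS VITA BDL livers 0 of the 8 listed genes passed by limma, where 0.0322% of all genes did, and 2 listed genes and 1157 of all genes had an unadjusted p under 0.05. These 2 are Rpp21 (-0.54, SE 0.14, adjusted p = 0.15) and Ltc4s (-1.06, SE 0.38, adjusted p = 0.27), and neither overlaps between the groups. Ltc4s was detected on 0 of 5 VAD VITA and 3 of 5 VAS VITA arrays. Its highest VAD VITA value was 5.29 and its lowest VAS VITA value 5.34, both on arrays that did not detect it. By the bound used above, which leaves out the spread between rats, Ltc4s was at least 1.36-fold lower in VAD VITA livers. The 95% interval of its fitted difference was -1.83 to -0.28. Against VAS vehicle BDL livers 0 of the 8 passed, where 0.333% of all genes did (0.183% higher, 0.15% lower), and 1 listed gene and 1091 of all genes had an unadjusted p under 0.05. That gene is Rpp21, at 10.73 ± 0.33 in VAD VITA and 11.06 ± 0.21 in VAS vehicle BDL livers (SD, n = 5 each), a difference of -0.33 with a 95% interval of -0.62 to -0.04 and a limma adjusted p of 0.34. The groups overlap, and within slides 1, 2 and 3 the difference was 0.04, -0.29 and -1.15.

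**Figure D3:**
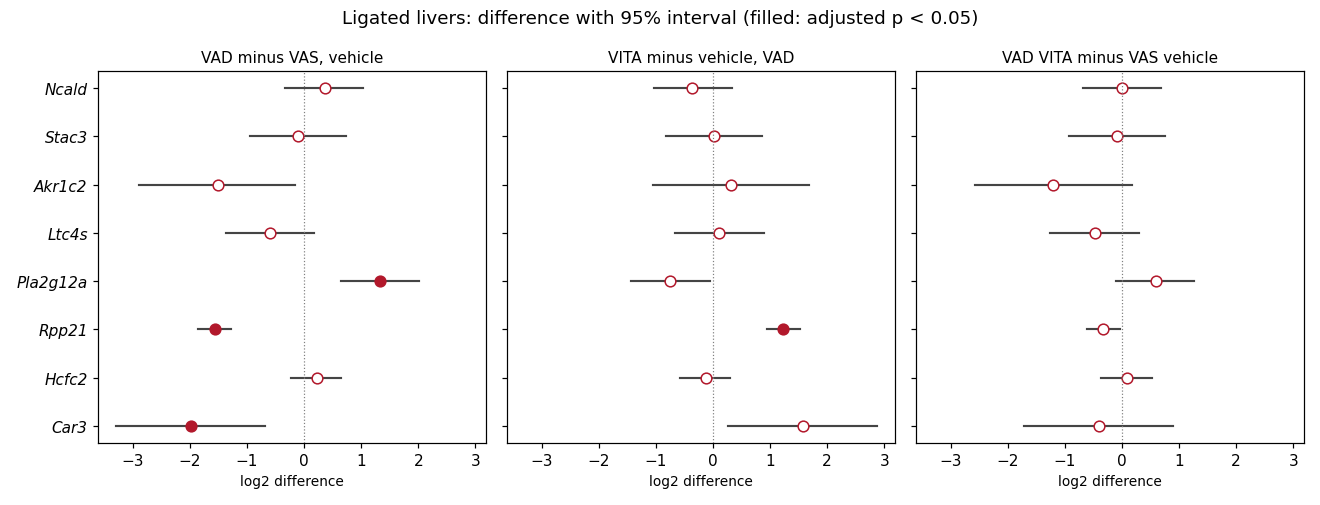
Log2 difference of each listed gene between BDL groups with its 95% interval, for VAD minus VAS among vehicle rats, VITA minus vehicle among VAD rats, and VAD VITA minus VAS vehicle. Filled points have an adjusted p under 0.05. Rpp21 is at -1.56, 1.23 and -0.33, Stac3 was below background on all 20 arrays, and no gene is filled in the last panel.

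The effect of ligation itself was fitted in VAS VITA rats. Their sham arrays are among the groups from which the names were proposed, so the calls here are not free of that choice. Ncald, Hcfc2 and Car3 are given there without a test, since the first 2 may have been chosen on these arrays and the fall of Car3 was known. Stac3 and Ltc4s are given without a test too. Stac3 passed the filter on dim probes through sham groups alone. Ltc4s was detected mainly in the sham groups in which it is high, and also on 3 VAS VITA and 2 VAS vehicle BDL arrays. Of the other 3 genes, detected on all 36 arrays, 2 were called by limma, Pla2g12a higher and Rpp21 lower, where 25.3% of all genes were called, 14.5% higher and 10.8% lower. This count is no result about the list.

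Stac3 was not detected after ligation. It read 4.73, 4.49, 5.14, 4.94 and 5.10 in VAS VITA BDL livers, against 12.06, 10.95, 11.79 and 10.87 in VAS VITA sham livers. The groups are far apart, and Stac3 was at least 60.7-fold lower after ligation. Ltc4s read 6.37, 5.40, 5.94, 6.78 and 5.34 in VAS VITA BDL livers, against 7.95, 8.32, 8.77 and 7.47 in VAS VITA sham livers. The groups do not overlap, 3 of 5 BDL arrays detected it, and the fitted difference was -2.16 (SE 0.40). Pla2g12a read 10.31, 10.14, 10.44, 10.11 and 10.31 in VAS VITA BDL livers, against 7.88, 8.95, 8.47 and 8.01 in VAS VITA sham livers. It rose 3.82-fold without overlap (1.93, SE 0.35, limma adjusted p = 9.8e-05). Slide 1 held no VAS VITA BDL array. Within slides 2 and 3 the difference was -2.88 and -1.45 for Ltc4s, and 1.76 and 2.27 for Pla2g12a.

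The small fall of Rpp21 after ligation in VAS VITA rats depended on the processing. The difference was -0.41 (SE 0.15, limma adjusted p = 0.041), and it was -0.23 (adjusted p = 0.36) without slide 3. The adjusted p was 0.086 under median scaling, 0.06 with no filter and 0.055 in a fit to these 2 groups, and leaving out 1 array gave differences of -0.49 to -0.36, with the call lost for 8 of the 9 arrays (adjusted p of 0.05 to 0.11). Within slides 2 and 3 it was -0.30 and -0.66. Akr1c2 read 10.11, 10.71, 12.38, 7.28 and 11.48 in VAS VITA BDL livers, against 11.39 to 12.10 in VAS VITA sham livers, a difference of -1.40 (SE 0.71, limma adjusted p = 0.15). VAS VITA BDL replicate 4 is the low value. Kupffer cell and macrophage markers summed to 12.91 to 13.53 in VAS VITA BDL and 11.65 to 12.12 in VAS VITA sham livers, and cholangiocyte markers to 10.33 to 11.42 and 8.34 to 9.14, and their part in these differences was not tested.

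Side by side, the ligation differences of the 4 states share BDL and sham arrays with the comparisons above and are given as values. Stac3 was at least 34.4-fold lower in VAD VITA, at least 2.95-fold lower in VAD vehicle and at least 36.2-fold lower in VAS vehicle rats after ligation. These bounds are set by the background of the BDL arrays and by the sham level, so they give no order of the states. Ltc4s had differences of -2.22 in VAD VITA, -0.09 in VAD vehicle, where 0 arrays of either group detected it, and -2.02 in VAS vehicle rats. Akr1c2 had differences of both signs, with -0.20 (SE 0.71) in VAD VITA, 1.72 (SE 0.71) in VAD vehicle and -0.85 (SE 0.71) in VAS vehicle rats. Its VAD vehicle BDL values of 9.10 to 9.97 lie above the 7.0 to 8.37 of VAD vehicle sham livers. Without VAD VITA sham replicate 3 the VAD VITA value was -1.10. Pla2g12a had 2.80, 1.01 and 0.80 (SE 0.35 each) in the same 3 states, and Rpp21 had -1.13, -0.46 and -0.46 (SE 0.15 each).

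Ncald, low in the injected sham groups, was high in every BDL group. Its BDL means were 9.70 ± 0.35 in VAD VITA, 10.06 ± 0.41 in VAD vehicle, 9.53 ± 0.56 in VAS VITA and 9.70 ± 0.12 in VAS vehicle livers (SD, n = 5 each). The ligation differences were 2.85 in VAD VITA, 0.83 in VAD vehicle, 3.03 in VAS VITA and 1.21 in VAS vehicle rats (SE 0.36 each), and the VAS vehicle value was 0.63 without VAS vehicle sham replicate 4. Car3 had differences of -5.68, -6.41, -5.78 and -5.25 (SE 0.68 each) in these 4 states, 51.1-fold, 85.3-fold, 55.0-fold and 38.0-fold. Every BDL rat, at 5.27 to 10.50, lies below every sham rat, at 12.85 to 14.81, and saturation of the probe at the sham level was not tested. Hcfc2 had -0.24, -0.19, 0.76 and -0.79 (SE 0.23 each), and in VAD vehicle rats the sign turned to 0.19 under median scaling. In VAS VITA rats it was 0.15 without slide 3.

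**Figure D4:**
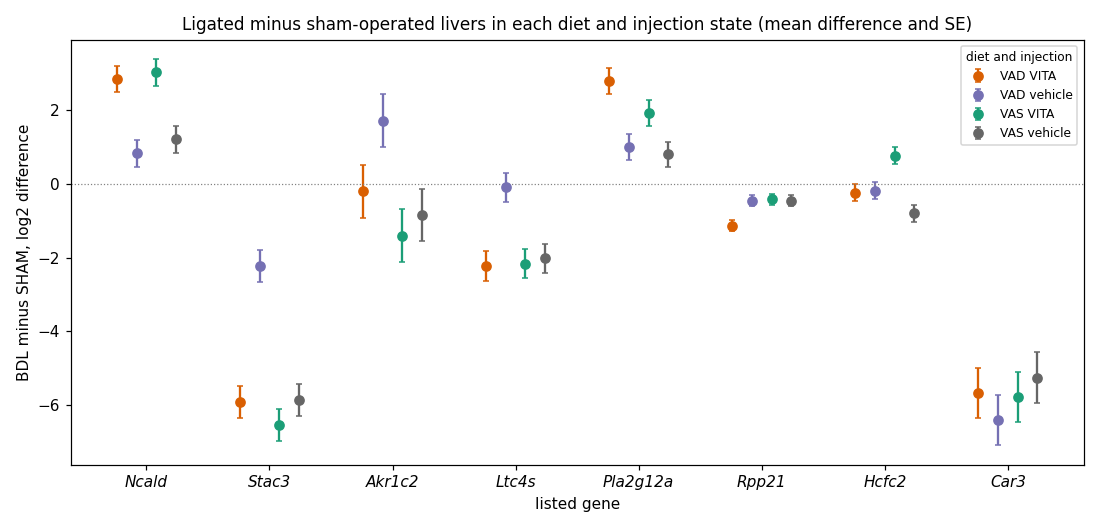
Log2 difference between BDL and sham livers of each listed gene in the 4 diet and injection states, with the SE as error bars. Car3 lies at -6.41 to -5.25. Stac3 was below background on all 20 BDL arrays, so its fitted points stand only for the bounds in the text. Akr1c2 in VAD vehicle rats at 1.72 is the 1 value of that gene above 0.

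The order of the 8 group means sums up each gene. Rpp21 was lowest in the 2 VAD vehicle groups, at 9.50 after ligation and 9.97 after the sham operation, a gap larger than the SD of either, and then came VAD VITA BDL livers at 10.73. Its VAD VITA and VAS VITA sham means, 11.86 and 11.68, do not differ beyond their spread. Stac3 and Car3 had the 4 BDL groups below the 4 sham groups, by a gap larger than the SD on either side. Neighbouring BDL groups did not differ beyond their spread. The 2 BDL vehicle groups are not neighbours in the order of Car3, and between them Car3 was called for diet. Ncald had the 4 BDL groups highest and the 2 injected sham groups lowest, at 6.85 and 6.50. Akr1c2 was lowest in VAD vehicle sham livers at 7.76, Ltc4s highest in VAS VITA sham livers at 8.13, Pla2g12a highest in VAD vehicle BDL livers at 11.60, and Hcfc2 lowest in VAS VITA sham livers at 4.89.

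Markers of other cell types moved with the VAD vehicle BDL group. The summed log2 level of Kupffer cell and macrophage markers was 13.72 to 14.58 in VAD vehicle BDL livers, against 12.95 to 13.39 in VAS vehicle BDL livers, with 6 of 8 tested markers higher, among them Cd68 and C1qb. Stellate cell markers were at 13.74 to 14.35, against 12.80 to 13.27, with 6 of 9 higher and 1 lower, and cholangiocyte markers at 11.95 to 12.57, against 10.08 to 10.73, with 5 of 5 higher, Epcam, Krt19 and Spp1 among them. Adipose markers were at 12.89 to 13.88, against 11.22 to 11.64, with 3 of 6 higher, Cidec lower (-0.98, limma adjusted p = 5.2e-07), and Plin1, Lep and Retn detected on 0 arrays. VAD VITA BDL livers lay below VAD vehicle BDL livers in these 4 lists, at 12.95 to 13.66 for Kupffer cell and macrophage, 13.03 to 13.59 for stellate cell, 10.74 to 11.73 for cholangiocyte and 11.82 to 12.81 for adipose markers. The part of these cells in the differences of Rpp21, Pla2g12a and Car3 was not tested. Hepatocyte markers gave 0 calls of 8 in this comparison, in which 26.4% of all genes were called, and muscle markers 0 of 2. Among the other lists, neutrophil markers gave 2 of 3 higher, T and NK cell markers 2 higher and 2 lower of 6, endothelial and mast cell or eosinophil markers 1 of 4 higher each, pancreas markers 1 of 2, erythroid markers 0 of 4 and plasma cell markers 0 of 1.

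The relatives of the listed genes are given as counts, without the listed genes. The shares of all genes called are 26.4% for diet after ligation (14.3% higher, 12.1% lower) and 17.0% for retinyl palmitate in VAD BDL rats (7.67% higher, 9.32% lower), and no count below was tested against them. Of 7 other subunits of ribonuclease P and its relative RNase MRP, 0 were called in either sham comparison, while Pop7 rose (0.82, limma adjusted p = 4.1e-05) and Pop5 fell (-0.64, adjusted p = 0.02) in VAD against VAS vehicle BDL livers, with a median of -0.07. Of 13 other aldo-keto reductases in the list used, 0 were called in sham livers. The list leaves out AKR1C3l1, which passed in both sham comparisons as given above. Of the 13, 2 rose and 5 fell with VAD after ligation, with a median of -0.45. Akr7a3 fell (-2.25, limma adjusted p = 3.4e-05), Akr1d1, the bile acid pathway reductase, fell (-1.87, adjusted p = 2.9e-08), and Akr1b8 rose by 1.46 (adjusted p = 2.9e-05). With retinyl palmitate in VAD BDL rats 5 of the 13 rose and 2 fell.

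Of 9 leukotriene pathway genes 2 rose and 6 fell with VAD after ligation (median -0.68), with Alox5ap, the 5-lipoxygenase activating protein, at 1.48 (limma adjusted p = 2.1e-06) and the leukotriene hydroxylases Cyp4f1 and Cyp4f4 at -1.19 (adjusted p = 1.9e-06) and -0.89 (adjusted p = 2.5e-05). Of 13 phospholipases A2 and related genes 2 rose, Pla2g7 by 1.88 (adjusted p = 2.8e-06) and Pla2g4a by 0.76 (adjusted p = 0.0043), and both fell with retinyl palmitate. The 6 other carbonic anhydrases and the 13 host cell factor partners gave 0 calls in these comparisons. Neuronal calcium sensors had 1 gene tested, with 0 calls, and muscle calcium channel genes 2, of which Cacna2d1 rose by 1.00 (adjusted p = 0.0017).

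Of 23 retinoid handling and response genes, 1 fell with VAD in sham livers, Cyp2c22, a P450 known to hydroxylate retinoic acid, at -3.94 (limma adjusted p = 1.3e-09). With retinyl palmitate in VAD sham livers 2 rose, Cyp2c22 (4.17, adjusted p = 1.9e-10) and the retinoic acid hydroxylase Cyp26a1 (2.44, adjusted p = 0.014). After ligation 2 rose and 11 fell with VAD (median -0.48), and 9 rose and 0 fell with retinyl palmitate in VAD rats. Cyp2c7 fell by 3.78 with VAD (adjusted p = 1e-13). Of 10 male-predominant liver genes other than Car3, 1 rose and 2 fell with VAD in sham livers, and 1 rose and 6 fell after ligation, with Cyp2c11 at -5.14 (adjusted p = 2.3e-10), Cyp2c13 at -4.98 (adjusted p = 4.9e-10) and Mup4 at -2.60 (adjusted p = 6.1e-10). Of 8 female-predominant genes 1 rose and 0 fell with VAD in sham livers, and 1 rose and 3 fell after ligation (median -0.55). Cyp2c12 rose by 2.78 (limma adjusted p = 3.8e-08). Cyp2c7, which is also in this list, was at -3.78 (adjusted p = 1e-13), and Srd5a1 at -2.06 (adjusted p = 2.4e-05).

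The 2 genes most like each listed gene were found by Pearson's r of log2 intensity over the 36 arrays, which share groups and slides. Stac3 was most like Obp3 (0.97) and Mup18 (0.96), the second a major urinary protein gene, and Car3 was most like Bdh1 (0.94) and Gstm3 (0.93). Rpp21 was most like Sh3gl3 (0.94) and Cyp2c13 (0.88), Ncald like Rcan2 and Tm4sf4 (0.85 each), and Ltc4s like Nox4 and Thumpd1 (0.84 each). Pla2g12a was most like Cyp2c55 (0.84) and Ablim3 (0.83), Akr1c2 like Lgals9 and Cmss1 (0.64 each), and Hcfc2 like Arl5c (0.59) and Xpo5 (0.54).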

How the data were processed

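Liver RNA of 36 rats was hybridised to Illumina RatRef bead arrays, per the labels' protocols after TriReagent extraction and biotin labelling. The deposited file holds mean bead intensity on a linear scale for 22523 probes, with a detection p-value beside each, made by the authors. The authors' deposited value table holds normalized intensity; the sources used here do not say how it was made; it is linear, its scaling is unknown, and each array keeps the rank order of its raw intensities.

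Intensities were background corrected and quantile normalized with neqc (offset 16, negative controls inferred from the detection p) in limma 3.58.1 and R 4.3.3. Probes detected at p under 0.01 on at least 4 arrays were kept (9545), the brightest per gene, giving 9314 genes. One fit of all 8 groups, leaving 28 residual degrees of freedom, gave moderated two-sided tests with Benjamini-Hochberg adjustment across every gene, with intervals from the SE and these degrees of freedom. Python 3.11.15 with pandas 2.3.3 made the tables, and matplotlib 3.10.9 the figures. The model was tested on simulated data. Probe names were matched to RefSeq by symbol (9578), gene ID (1824) or synonym (5419), and 5702 kept the file's name.

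The listed genes, the gene lists and the comparisons were chosen with earlier results of these data known. The design took ligation in VAS VITA rats as free of the choice. This does not hold for Ncald, Hcfc2 and Car3, which are given there without a test. Stac3, kept by the filter through sham groups alone, and Ltc4s, detected mainly in its high sham groups, are given without a test too. For Pla2g12a, Rpp21 and Akr1c2 it may not hold either, since the names were proposed from the sham groups. Named genes are the listed genes, the 2 most alike to each, up to 3 called per family with the largest diet difference after ligation, and up to 3 of the brightest per marker list. Exceptions chosen after their values were seen are AKR1C3l1 and Trim39, Cyp26a1, and markers named as undetected. Alternatives were another background correction, median scaling, the authors' table, no or a stricter filter (12 arrays), every probe alone, slide or replicate number as a block, only the groups compared, no slide 3, and each array left out.

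Arrays had 6577 to 8587 probes detected, and 0 arrays were identical.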

Additional observations from a re-analysis of the deposited data

Results flagged for a closer look

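Among 64 groups of a listed gene, 3 held 1 rat far from the others, where chance gives about 1 in 20. Akr1c2 read 7.27 in VAD VITA sham replicate 3, and the other 3 rats of that group read 10.79 to 11.04. Rpp21 read 10.14 in VAD VITA BDL replicate 5, and the other 4 read 10.81 to 10.95. Car3 read 13.49 in VAS VITA sham replicate 2, and the other 3 read 14.41 to 14.52. The retinyl palmitate difference of Rpp21 was larger in VAD than in VAS BDL rats by 1.02 on the log2 scale, tested as an interaction (limma adjusted p = 0.00059).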

How the results depend on the processing

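Over 2368 alternative values of single listed genes, 0 called values changed sign, while 60 values that were not called or not tested did, in 28 combinations of gene and comparison. Among these, VAD VITA minus VAS vehicle sham livers turned to 0.29 for Ltc4s without VAD VITA replicate 1 and to 0.59 for Stac3 without VAS vehicle replicate 3. The count of listed genes called for retinyl palmitate in VAD BDL rats was 1, and it was 2 in a fit to only these groups, which adds Pla2g12a, and 1 to 2 with 1 array left out, where Car3 is added without VAD VITA replicate 1 or 2 or VAD vehicle replicate 4. The interaction count was 1 to 2 with 1 array left out. The diet count among BDL vehicle rats was 3, and 2 to 3 with 1 array left out. A fit to only these groups adds Akr1c2 to it, and the authors' table takes Car3 from it. Same-numbered rats of different groups were not treated as pairs, since 0 of 6 comparisons had every pair correlated above 0.1 (-0.18 to 0.41). In the diet comparison of BDL vehicle rats 4 of 5 pairs were above 0.1, as in VAD VITA against VAS vehicle BDL rats. The check does not settle whether such rats pair. The replicate block left these counts at 3 for diet among BDL vehicle rats and 1 for retinyl palmitate in VAD BDL rats, and changed no other call of a listed gene. The cause of these changes was not tested, apart from fewer arrays in the smaller fits. Signal over background limits Stac3, Ltc4s and Hcfc2.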
